A study of Mus musculus with 6 samples.

Results

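Basement membranes are thin sheets of matrix that line blood vessels and form the inner limiting membrane between retina and vitreous. Their scaffold is a network of collagen IV and a network of laminin trimers, tied together by nidogens and the heparan sulfate proteoglycans perlecan and agrin. Müller glia, astrocytes, endothelial cells and pericytes are known to make much of this matrix in the retina, and laminins and other basement membrane proteins are substrates on which retinal axons grow. The genes described here are every row of the count table whose symbol names a collagen chain or a laminin chain, with Nid1, Nid2, Hspg2, Agrn, Fn1, Sparc, Timp2 and Timp3 added by name. They were chosen by name, with no measured value in the rule, and number 63 of the 55573 genes in the table: 44 collagen chains, 11 laminin chains and the 8 others. Of these, 59 had a count in any library, and 27 were abundant enough to be tested.

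The libraries came from cells sorted as retinal ganglion cells (RGCs), whose axons make up the optic nerve, from C57BL/6 mice whose Myh9 and Myh10 genes were both floxed. The libraries labelled dKO (n = 3) came from eyes that had received AAV2-Cre into the vitreous, and those labelled WT (n = 3) from eyes that had received AAV2-GFP, each 2 weeks before the retinas were taken. Each library pooled 3 retinas from 3 mice. Both groups carried the floxed alleles and a viral vector. The promoter that drives Cre is not given in the sources used here.

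Total counts were 4569880 to 5634316 in the dKO libraries and 4730540 to 6146226 in the WT libraries. One ribosomal RNA row, CT010467.1, held 64.2% to 91.2% and 90.2% to 92.8% of them, so that 453327 to 1636581 counts in dKO and 346037 to 499313 in WT were left for all other genes (the non-ribosomal counts). The deepest of these was dKO replicate 3, at 3.53 times the mean of the other libraries. The targeted genes were not detectably lower in the libraries labelled dKO: Myh9 had a log2 fold change of -0.044 ± 0.098 (SE; edgeR adjusted p = 0.908) and Myh10 one of -0.15 ± 0.14 (0.735), although counts over the whole gene do not check the deletion. Several RGC markers were sparse. Those named next were picked after values were seen, and other listed RGC markers had more counts. Pou4f2 had 7 counts in all dKO libraries together and 0 in WT. Slc17a6 had 32 and 5, and Rbpms 47 and 22. These sums are not scaled, and the dKO libraries together were deeper. Müller glia markers were abundant, and 16 listed RGC markers together took 0.0474% to 0.0518% of the non-ribosomal counts in dKO and 0.0350% to 0.0422% in WT, against 3.17% to 3.45% and 3.08% to 3.18% for 12 Müller glia markers. The label of RGCs is thus carried by few counts of its defining markers, of which 6 were tested and 1, the neurofilament gene Nefl, was called (higher in dKO, 1.63 ± 0.28, log2 fold change and SE). Of the 6, 4 had a positive and 2 a negative value, among the latter Isl1 (-0.65 ± 0.23, edgeR adjusted p = 0.138). Which cells the matrix transcripts came from cannot be read from bulk libraries. Fewer cells of a type and less RNA per cell cannot be told apart in them either.

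Agrn encodes the heparan sulfate proteoglycan agrin, known for clustering acetylcholine receptors at the neuromuscular junction and present in the retinal inner limiting membrane. It was the 1 member of the 27 tested that was called, and it was lower in the libraries labelled dKO. It was at 15.7, 12.1 and 12.6 CPM in dKO replicates 1 to 3 (82, 50 and 193 counts), against 21.2, 23.4 and 17.3 CPM in WT replicates 1 to 3 (97, 74 and 68 counts). All 3 dKO values lay below all 3 WT values; CPM are counts per 1000000 of the TMM-scaled library size, which adjusts for the difference in ribosomal RNA share. The level was 35.2% lower in dKO (log2 fold change -0.63 ± 0.14, SE; 95% interval -0.90 to -0.35; p adjusted by Benjamini-Hochberg in edgeR's quasi-likelihood test, hereafter adjusted p, = 0.00261). Of all 8444 genes tested, 1.92% were called, 1.18% lower and 0.734% higher. No member was called higher, and a member not called is not thereby shown to be unchanged. The call of Agrn was lost without dKO replicate 3 (log2 fold change -0.54, adjusted p = 0.0894) and with DESeq2 (-0.62, 0.130). Scaled to library totals, ribosomal RNA included, the value turned to 0.55 (adjusted p = 0.520), but that scaling moved the median of all genes to 1.21, and Agrn still lay below it. Agrn (ENSMUSG00000041936, chromosome 4, 156165290 to 156197488 in GRCm38) shares no exon base with another annotated gene.

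Agrn was called, and Sparc, described next, was the tested member that lay above WT in every dKO library. For this reason the 250 bases before the RefSeq start of each are shown 5′ to 3′ on the gene's own strand. They are from RefSeq on GRCm38.p6, with capitals at every match to the GC box GGGCGG on either strand. For Agrn the upstream of its 2 listed starts is shown, chr4:156197489-156197738 on the minus strand, and for Sparc chr11:55420081-55420330 on the minus strand.
Agrn: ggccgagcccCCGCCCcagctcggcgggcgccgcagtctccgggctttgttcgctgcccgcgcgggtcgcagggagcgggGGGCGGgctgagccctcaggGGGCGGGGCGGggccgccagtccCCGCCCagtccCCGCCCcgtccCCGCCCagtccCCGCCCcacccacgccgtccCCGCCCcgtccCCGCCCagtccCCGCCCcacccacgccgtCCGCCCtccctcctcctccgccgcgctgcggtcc
Sparc: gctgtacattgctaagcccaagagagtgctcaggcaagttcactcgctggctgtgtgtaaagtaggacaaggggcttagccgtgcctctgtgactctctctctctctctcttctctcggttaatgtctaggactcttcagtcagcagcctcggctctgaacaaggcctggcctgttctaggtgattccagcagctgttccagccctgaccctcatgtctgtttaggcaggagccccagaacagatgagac
The Agrn window holds 12 GC boxes, overlapping matches counted, and its GC content is 83.6%. That many or more were found in 5 of 32851 promoter windows in the table (0.0152%), the Agrn window included. The window before the other listed Agrn start, chr4:156186260-156186509, holds 2 GC boxes, and its GC content is 60.8%. The Sparc window holds none. It lies inside Sparc as annotated for the exon lengths used here, where the gene starts at 55423183, while the Agrn window ends at the annotated start of Agrn. On either strand, 3 other motifs were searched. The core promoter motif TATAAA was in neither of the windows shown. The CCAAT box was in neither, nor was the AP-1 site, spelled TGANTCA. Among 51 windows found for 46 of the 63 members, 58.8% hold a GC box, against 32.7% of all windows; the median GC content is 60.4% in member windows and 52.4% in all. The core promoter motif was found in 9.8% of member windows and 12.4% of all, the CCAAT box in 31.4% and 33.8%, and the AP-1 site in 1.96% and 6.75%. These matches are a description of the letters in the windows.

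Sparc, a secreted collagen-binding matricellular protein of the basement membrane, was the most abundant member by far. It was at 206, 191 and 186 CPM in dKO replicates 1 to 3 (1074, 787 and 2844 counts), against 154, 173 and 164 CPM in WT replicates 1 to 3 (707, 546 and 643 counts). Every dKO value lay above every WT value, but the difference did not pass (log2 fold change 0.25 ± 0.097, SE; adjusted p = 0.225, edgeR; 95% interval 0.053 to 0.44). It passed with limma-voom (adjusted p = 0.0279). Its level per exon length was 469.7 ± 19.4 RPKM in dKO and 391.7 ± 22.2 in WT (SD, n = 3 each), where RPKM are counts per kilobase of exon per 1000000 non-ribosomal counts, without TMM scaling. Sparc alone was 8.24 times the level of Timp2, the next member per length, in dKO and 6.92 times in WT, and 12.9 and 10.8 times with the longest transcript as the length. Endothelial markers (15 listed) took 0.245% to 0.251% of the non-ribosomal counts in dKO and 0.243% to 0.284% in WT. Most of that share was Kdr, Flt1 and Slc2a1, and several other endothelial markers were too rare to test. Mural markers (13) took 0.179% to 0.189% in dKO and 0.165% to 0.178% in WT, and astrocyte markers (6) 0.102% to 0.103% and 0.0982% to 0.102%. The astrocyte gene Gfap was higher in dKO (0.69 ± 0.12, log2 fold change and SE; adjusted p = 4.04e-05, edgeR), and Slc1a2, listed with it, lower (-0.39 ± 0.097, 0.0119). Their part in the values of Sparc and Agrn was not tested.

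Fn1, fibronectin, the integrin-binding glycoprotein of provisional matrix and plasma, was at 18.8, 30.6 and 20.05 CPM in dKO replicates 1 to 3 (98, 126 and 307 counts), against 24.9, 27.2 and 21.4 CPM in WT replicates 1 to 3 (114, 86 and 84 counts). The highest and the 2 lowest of its values were in dKO, so the groups overlapped (log2 fold change -0.14 ± 0.13, SE; adjusted p = 0.735, edgeR). Of the Timp genes, which encode inhibitors of matrix metalloproteinases, Timp3 (the matrix-bound form) was at 27.4, 30.3 and 30.6 CPM in dKO replicates 1 to 3 (143, 125 and 468 counts), against 31.03, 22.2 and 36.2 CPM in WT replicates 1 to 3 (142, 70 and 142 counts). Both its lowest and its highest value were in WT. Timp2 was at 24.95, 23.1 and 24.7 CPM in dKO replicates 1 to 3 (130, 95 and 378 counts), against 27.97, 21.9 and 23.2 CPM in WT replicates 1 to 3 (128, 69 and 91 counts), again with the WT values on either side of the dKO values. The log2 fold changes were -0.028 ± 0.12 (SE) for Timp3 and -0.014 ± 0.12 for Timp2 (edgeR adjusted p = 0.956 and 0.977). Their 95% intervals, -0.27 to 0.21 and -0.25 to 0.22, reached 16.9% down (Timp3) and 16.9% up (Timp2). These intervals rest on a variance moderated across genes. Leaving out 1 library at a time gave Timp3 log2 fold changes from -0.18 to 0.13. Timp3 shares 1733 exon bases with Syn3 on the opposite strand, of which the table holds 17 counts in all 6 libraries.

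**Figure D1:**
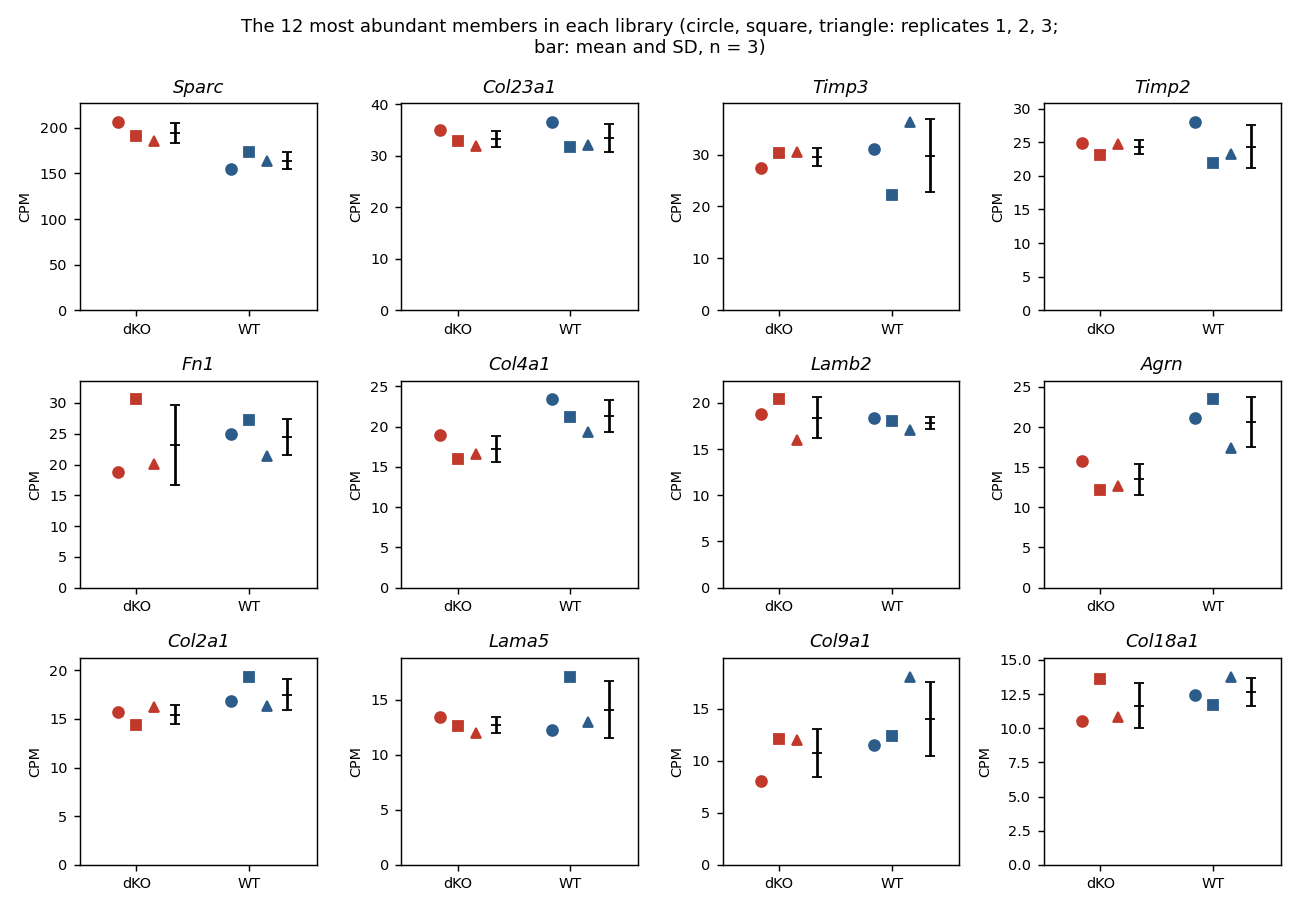
CPM after TMM scaling of the 12 members with the highest mean, one panel per gene with the axis from 0, dKO left and WT right; markers are replicates 1 to 3 and the bar gives the mean and SD (n = 3). Agrn and Col4a1 lie lower in every dKO library than in any WT library, as does Col2a1 by a narrow margin, Sparc lies higher in every dKO library, and the groups of the other 8 overlap. Scaled to library totals instead, every log2 fold change of these genes is positive.

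Collagen IV, the network collagen of basement membranes, is built from 6 chains that form an α1α1α2 trimer almost everywhere and α3α4α5 or α5α5α6 trimers in particular tissues. Col4a1 was at 19.0013, 16.02 and 16.7 CPM in dKO replicates 1 to 3 (99, 66 and 255 counts), against 23.4, 21.2 and 19.4 CPM in WT replicates 1 to 3 (107, 67 and 76 counts). All dKO values lay below all WT values, and the difference did not pass (log2 fold change -0.32 ± 0.13, SE; adjusted p = 0.225, edgeR; 95% interval -0.58 to -0.069). Its partner Col4a2 was at 9.60, 13.3 and 8.42 CPM in dKO and 11.8, 8.24 and 11.2 in WT, with overlapping groups (log2 fold change -0.13 ± 0.18, SE; adjusted p = 0.830, edgeR). Col4a6 was at 2.11, 1.94 and 1.89 CPM in dKO replicates 1 to 3 (11, 8 and 29 counts), against 2.84, 1.90 and 4.08 CPM in WT replicates 1 to 3 (13, 6 and 16 counts). The highest of its values were WT replicates 3 and 1, and the lowest 2 were dKO replicate 3 and WT replicate 2 (log2 fold change -0.61 ± 0.36, SE; adjusted p = 0.505, edgeR). Col4a5 had a positive value (0.27 ± 0.22, adjusted p = 0.690, edgeR). Col4a3 and Col4a4 were too rare to test, with 12 and 13 counts in all dKO libraries and 5 and 6 in WT.

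The 6 collagen IV genes lie as 3 head-to-head pairs in the mouse genome, and in 2 of the pairs 1 member was the more abundant in every library. Per exon length, Col4a1 stood at 21.1 ± 1.77 RPKM in dKO and 25.9 ± 2.81 in WT (SD, n = 3 each), and Col4a2 at 14.5 ± 3.41 and 14.3 ± 2.59, a ratio of 1.46 in dKO and 1.82 in WT. By library this ratio was 1.76, 1.06 and 1.75 in dKO and 1.76, 2.29 and 1.53 in WT, above 1 in every library and overlapping between groups. On the X chromosome, Col4a5 stood at 8.94 and 7.42 RPKM and Col4a6, whose start lies 1308 bases away, at 2.28 and 3.33. The ratio of Col4a5 to Col4a6 was 3.93 in dKO and 2.23 in WT, and above 1 in each library, with overlapping groups. The chromosome 1 pair, Col4a3 and Col4a4, separated by 71 bases, was near the floor, at 0.390 and 0.470 RPKM in dKO and 0.361 and 0.450 in WT. The annotated first exons of Col4a1 and Col4a2 overlap on opposite strands by the 22 bases at chr8:11312805-11312826, shown because a read lying within them could come from either gene; the capitals mark a GC box.
Col4a1 and Col4a2, plus strand: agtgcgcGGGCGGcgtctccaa

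Laminins are trimers of an α, a β and a γ chain whose α chain binds cell-surface integrins and dystroglycan. One chain led each class in every library. Lamb2, the β2 chain, was at 18.8, 20.4 and 15.9980 CPM in dKO replicates 1 to 3 (98, 84 and 245 counts), against 18.4, 18.1 and 17.1 CPM in WT replicates 1 to 3 (84, 57 and 67 counts). The highest and the lowest value were both in dKO (log2 fold change -0.015 ± 0.13, SE; adjusted p = 0.979, edgeR). Lama5, the α5 chain, was at 13.4, 12.6 and 12.01 CPM in dKO replicates 1 to 3 (70, 52 and 184 counts), against 12.2, 17.1 and 13.01 CPM in WT replicates 1 to 3 (56, 54 and 51 counts). WT replicate 2 was highest and the other WT values lay among those of dKO (log2 fold change -0.15 ± 0.15, SE; adjusted p = 0.758, edgeR). Lamc1, the γ1 chain common to most laminins, was at 8.45, 8.25 and 8.88 CPM in dKO replicates 1 to 3 (44, 34 and 136 counts), against 10.3, 12.4 and 9.44 CPM in WT replicates 1 to 3 (47, 39 and 37 counts). All dKO values lay below all WT values without passing (log2 fold change -0.29 ± 0.17, SE; adjusted p = 0.517, edgeR; 95% interval -0.64 to 0.057).

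Lama2, the α2 chain of muscle, nerve and vessel laminins, was at 6.72, 7.77 and 4.83 CPM in dKO replicates 1 to 3 (35, 32 and 74 counts), against 7.65, 6.97 and 8.42 CPM in WT replicates 1 to 3 (35, 22 and 33 counts). The lowest value was dKO replicate 3, and the groups overlapped (log2 fold change -0.40 ± 0.21, SE; adjusted p = 0.437, edgeR). Lama4, the α4 chain typical of endothelium, was at 2.69, 3.40 and 3.98 CPM in dKO replicates 1 to 3 (14, 14 and 61 counts), against 1.97, 3.17 and 3.06 CPM in WT replicates 1 to 3 (9, 10 and 12 counts). Its highest values were dKO replicates 3 and 2 and its lowest was WT replicate 1 (log2 fold change 0.42 ± 0.32, SE; adjusted p = 0.656, edgeR). Lama1, the α1 chain of early basement membranes, had a log2 fold change of -0.20 ± 0.29 (SE; adjusted p = 0.848, edgeR). Of the other laminin chains, Lamc3 had 42 and 19 counts in dKO and WT, Lamb1 28 and 20, and Lama3 15 and 13. The skin chain Lamb3 had 9 counts in all 6 libraries, and none of these was tested.

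Per exon length, Lamb2 stood at 27.7 ± 2.94 RPKM in dKO and 26.6 ± 1.41 in WT, Lama5 at 10.2 ± 0.415 and 11.2 ± 2.14, and Lamc1 at 9.45 ± 0.524 and 11.7 ± 1.77 (SD, n = 3 each). Lamb2 was thus 2.71 times Lama5 in dKO and 2.37 times in WT, while Lamc1 and Lama5 were close (ratio 0.926 and 1.04). Within classes, Lamb2 was 22.4 times Lamb1 in dKO and 17.1 times in WT, a ratio that with the longest transcript as the length was 14.1 and 10.8. Lama5 was 2.83 times Lama2 in dKO and 2.64 times in WT, but 1.67 and 1.55 times with the longest transcript, and 2.97 and 2.9961 times Lama1. The α2, α1 and α4 chains, between 2.55 and 3.60 RPKM in dKO and between 2.05 and 4.25 in WT, overlapped between neighbours in that order in dKO, while in WT the α1 and α4 chains did not (2.90 to 5.07 RPKM against 1.49 to 2.39). That order depends on the length used: with the longest transcript Lama4 stood at 5.10 RPKM in dKO and 4.09 in WT, above Lama1 at 3.50 and 3.81. Summed over classes, α chains stood at 20.3 ± 1.08 RPKM in dKO and 22.2 ± 3.42 in WT, β chains at 29.4 ± 3.32 and 28.4 ± 1.29, and γ chains at 11.9 ± 0.921 and 14.1 ± 1.39 (SD, n = 3 each).

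**Figure D2:**
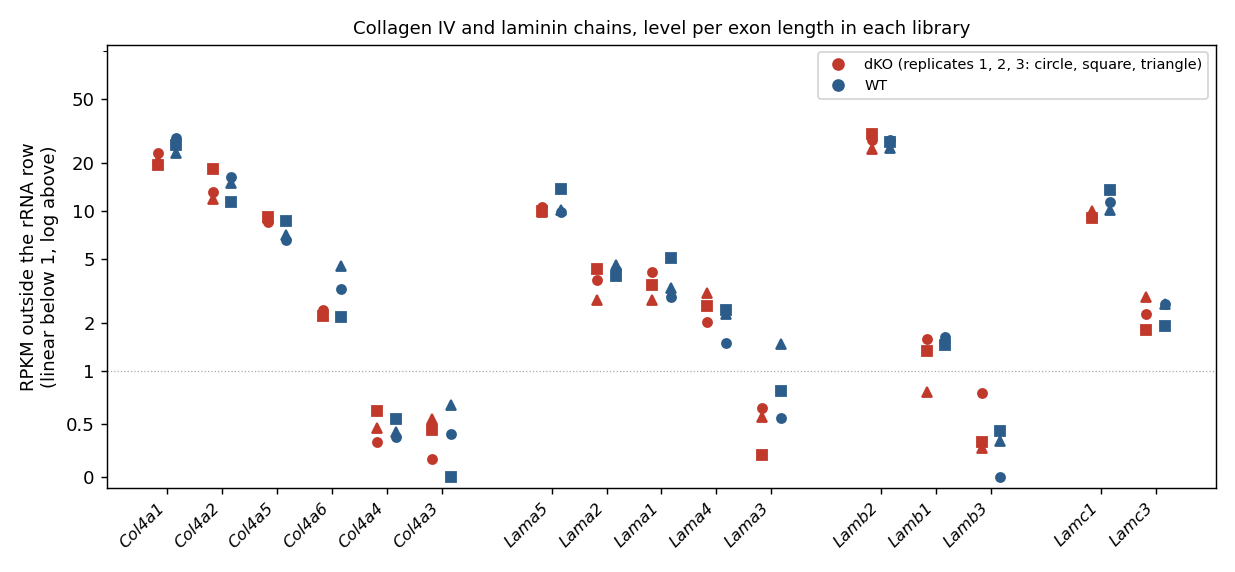
Level per exon length (RPKM outside the ribosomal RNA row; linear below 1 and logarithmic above, dotted line at 1) of collagen IV and laminin chains in every library, dKO left and WT right. Col4a1 leads the collagen IV chains, and Lama5, Lamb2 and Lamc1 lead the α, β and γ laminin chains in each library, while Col4a3, Col4a4 and Lamb3 lie below 1 throughout.

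Of the linkers, Agrn was called and the others were not. Nid1, nidogen 1, which bridges laminin to collagen IV, had a log2 fold change of 0.19 ± 0.32 (SE; adjusted p = 0.869, edgeR) and Hspg2, perlecan, one of -0.25 ± 0.34 (0.830). Both rested on few reads, with 77 and 32 counts of Nid1 and 62 and 35 of Hspg2 in dKO and WT, and their 95% intervals were -0.45 to 0.83 and -0.93 to 0.43. The interval of Hspg2 does not exclude a fall as large as that of Agrn. Per exon length Agrn stood at 13.3 ± 1.80 RPKM in dKO and 20.2 ± 3.28 in WT, Nid1 at 4.27 ± 0.429 and 3.56 ± 0.872, and Hspg2 at 1.71 ± 0.259 and 2.03 ± 1.24 (SD, n = 3 each). Nid2, with 18 counts in all, was not tested.

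Col23a1, a transmembrane collagen that is not a basement membrane chain, was the most abundant collagen. It was at 34.9, 32.8 and 31.9 CPM in dKO replicates 1 to 3 (182, 135 and 488 counts), against 36.5, 31.7 and 32.1 CPM in WT replicates 1 to 3 (167, 100 and 126 counts), and the groups overlapped (log2 fold change -0.028 ± 0.11, SE; adjusted p = 0.951, edgeR; 95% interval -0.25 to 0.19). At 52.99 ± 1.81 RPKM in dKO and 52.8 ± 4.75 in WT (SD, n = 3 each) it also exceeded every other collagen per exon length. The other transmembrane collagens Col17a1 (23 counts in all libraries) and Col25a1 (19) were not tested, and Col13a1 had no count, as did Col19a1, Col6a5 and Col6a6. A count of 0 allows up to 3 counts over a group.

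Collagens II and IX are known from cartilage and vitreous. Col2a1, the α1 chain of collagen II, was at 15.7, 14.3 and 16.3 CPM in dKO replicates 1 to 3 (82, 59 and 249 counts), against 16.8, 19.3 and 16.3 CPM in WT replicates 1 to 3 (77, 61 and 64 counts). The groups did not overlap in CPM, but dKO replicate 3 and WT replicate 3 nearly met, and per exon length the groups overlapped (log2 fold change -0.14 ± 0.14, SE; adjusted p = 0.738, edgeR). Col9a1, the α1 chain of collagen IX, which coats collagen II fibrils in vitreous and cartilage, was at 8.06, 12.1 and 12.01 CPM in dKO replicates 1 to 3 (42, 50 and 184 counts), against 11.6, 12.4 and 18.1 CPM in WT replicates 1 to 3 (53, 39 and 71 counts). WT replicate 3 was highest and dKO replicate 1 lowest, with the others intermixed (log2 fold change -0.34 ± 0.16, SE; adjusted p = 0.367, edgeR; 95% interval -0.66 to -0.014). Its partners Col9a2 (-0.043 ± 0.33, SE) and Col9a3 (0.34 ± 0.36) had values of opposite sign. Col18a1, the basement membrane collagen whose end fragment is endostatin, was at 10.6, 13.6 and 10.8 CPM in dKO replicates 1 to 3 (55, 56 and 166 counts), against 12.5, 11.7 and 13.8 CPM in WT replicates 1 to 3 (57, 37 and 54 counts), with overlapping groups (log2 fold change -0.16 ± 0.16, SE; adjusted p = 0.746, edgeR).

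Further collagens of connective tissue were tested. Col3a1, of vessel walls and loose connective tissue, was at 14.97, 9.46 and 11.4 CPM in dKO and 14.4, 11.7 and 10.7 in WT, with a log2 fold change of -0.065 ± 0.16 (SE). Col1a2 (0.20 ± 0.28), Col5a1 (-0.19 ± 0.26) and Col6a3 (0.062 ± 0.29) also did not pass, and the adjusted p of these 4 was 0.830 to 0.962 (edgeR). Col1a1, the major chain of collagen I, had only 28 counts in dKO and 13 in WT. Per exon length, Col1a2 stood at 3.40 and 2.84 RPKM and Col1a1 at 1.398 and 1.65. The ratio of Col1a2 to Col1a1 was 2.43 in dKO and 1.72 in WT, running by library from 1.61 to 3.17 in dKO and from 1.19 to 3.70 in WT, and was 5.11 and 3.62 with the longest transcript. Fibroblast and meningeal markers (12 listed, 2 of them, Dpt and Twist1, with no count) took 0.0160% to 0.0204% of the non-ribosomal counts in dKO and 0.0176% to 0.0214% in WT.

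The other chains were rare. The 36 members not tested had at most 68 counts over all 6 libraries. Named by their summed counts in dKO and WT, the more frequent were Col5a2 (42 and 26), Col14a1 (43 and 16), Col8a1 (37 and 19), Col22a1 (35 and 17), Col27a1 (29 and 16) and Col6a1 (30 and 12). These sums are not scaled, and the dKO libraries together were deeper. The anchoring fibril gene Col7a1, Col12a1, Col15a1, Col16a1, Col5a3, Col6a2, Col11a1, Col11a2, Col20a1 and Col24a1 each had 11 to 32 counts in all, and Col26a1, Col8a2, Col6a4, Col10a1 and Col28a1 had 1 to 3.

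By chain family, summed levels per exon length ordered the module. Fn1 and Sparc together stood at 488 ± 16.7 RPKM in dKO and 411 ± 23.8 in WT (SD, n = 3 each, here and in the following), and the 2 Timp genes at 90.1 ± 3.70 RPKM in dKO and 89.7 ± 12.6 in WT. Membrane collagens (4 genes) followed at 54.1 ± 2.02 RPKM in dKO and 54.3 ± 4.30 in WT, collagen IV (6) at 47.7 ± 2.60 RPKM in dKO and 51.7 ± 3.59 in WT, the fibril-associated FACIT collagens (9) at 40.9 ± 3.02 RPKM in dKO and 44.2 ± 7.72 in WT and fibrillar collagens (11) at 40.7 ± 5.18 RPKM in dKO and 43.4 ± 8.29 in WT. In WT these 4 families overlapped between neighbours in that order; in dKO membrane collagens, collagen IV and FACIT collagens did not overlap, while FACIT and fibrillar collagens did. With the longest transcript as the length, fibrillar collagens had the highest sum of these 4, at 70.1 RPKM over all libraries against 42.1 with the union of exons, and Fn1 and Sparc stood at 736 against 449. The linkers (4) stood at 20.4 ± 1.12 RPKM in dKO and 26.2 ± 5.35 in WT, with 1 WT library, replicate 3, within the dKO range of 19.3 to 21.6. Multiplexins (Col15a1 and Col18a1) were at 16.4 ± 3.20 RPKM in dKO and 18.1 ± 0.986 in WT, and collagen VI (6) at 7.52 ± 2.39 RPKM in dKO and 5.54 ± 0.167 in WT. Network collagens (3) were at 1.95 ± 0.820 RPKM in dKO and 2.30 ± 0.894 in WT, and the remaining Col7a1, Col26a1 and Col28a1 at 1.096 ± 0.546 RPKM in dKO and 0.508 ± 0.448 in WT.

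**Figure D3:**
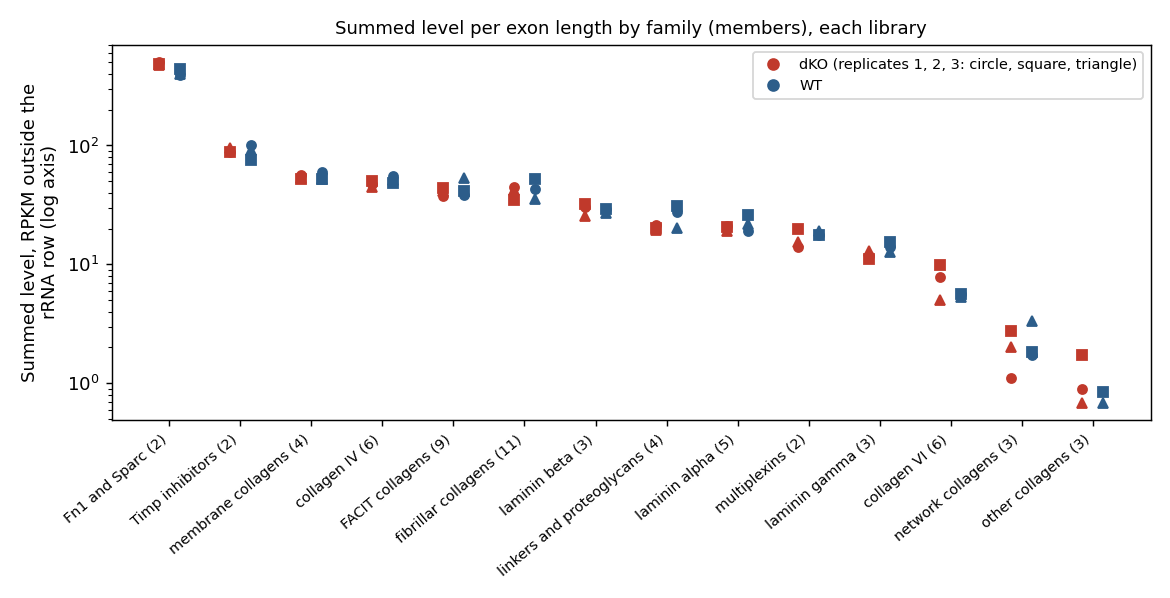
Summed level per exon length of each chain family (number of member genes in brackets) in every library, on a log axis, dKO left and WT right; WT replicate 1 of the last family, at 0, cannot be drawn on this axis. Sparc with Fn1 and the Timp pair stand above every collagen and laminin family. Fn1 with Sparc is the 1 family of 14 whose dKO and WT libraries do not overlap. That sum is mostly Sparc, at 469.7 RPKM in dKO and 391.7 in WT, which was not called (adjusted p = 0.225, edgeR). Fn1, at 18.1 and 19.03 RPKM, overlapped between groups. As single genes in CPM, 8.66% of all tested lay higher in every dKO library, as Sparc did.

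As a whole, the 63 members took 0.462% ± 0.00961 of the non-ribosomal counts in dKO and 0.451% ± 0.0157 in WT (SD, n = 3 each). Without Sparc the share was 0.284% ± 0.00809 in dKO and 0.302% ± 0.0103 in WT. The mean was thus lower in dKO where the mean with Sparc was higher, and the groups overlapped in both. Of the 27 tested members, 7 had a positive and 20 a negative log2 fold change, with a median of -0.13, against -0.00072 over all 8444 genes, of which 49.8% were positive. The members are long genes, with a median exon length of 8144 bases against 5312.5 for all genes tested, and 2204 other genes between 6350.5 and 10602 bases had a median of -0.035. The members' median was -0.0099 when dKO replicate 3 was left out, -0.022 when WT replicate 1 and -0.066 when WT replicate 2 was, and leaving out any of the other libraries gave -0.14 to -0.10. The 3 dKO values lay above the 3 WT values for 1 tested member (Sparc) and below them for 4 (Agrn, Col4a1, Col2a1 and Lamc1), where 8.66% and 8.31% of all genes tested did so. At an unadjusted p under 0.05 there were 4 members (Agrn, Sparc, Col4a1 and Col9a1), and 12.5% of all genes. The 95% intervals of members not called reached as low as -1.33 (Col4a6) and as high as 1.06 (Col9a3) on the log2 scale.

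**Figure D4:**
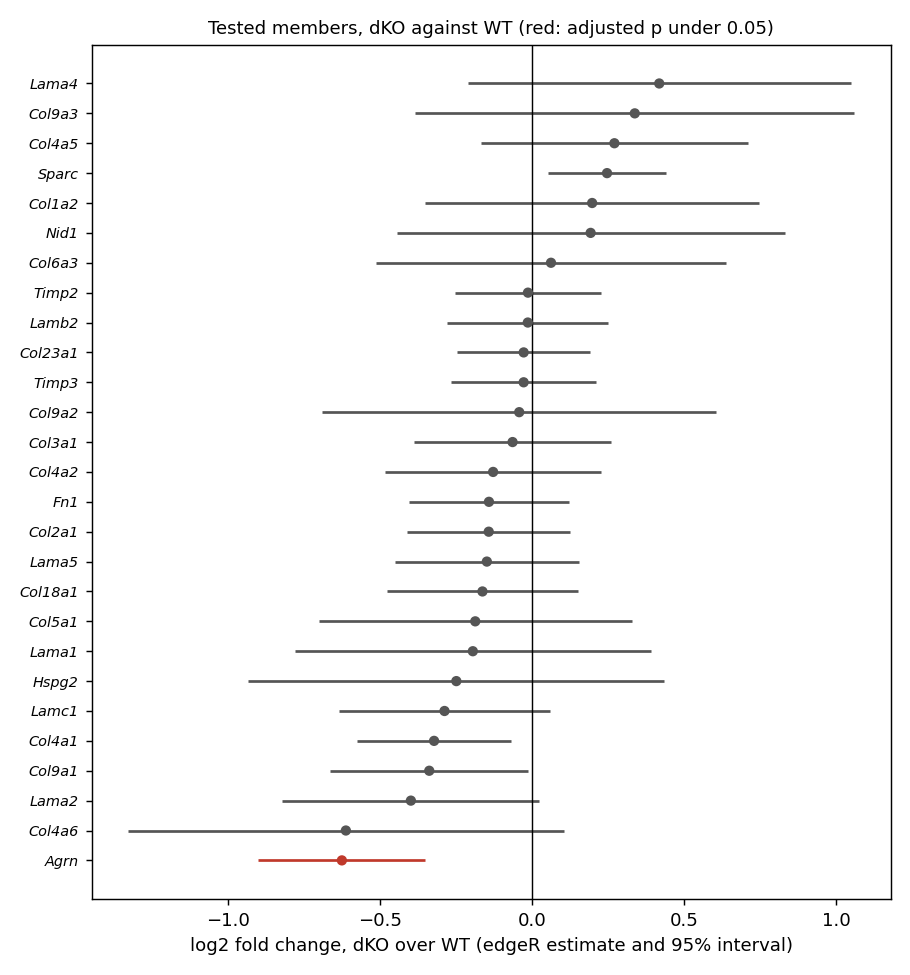
Log2 fold change of the 27 tested members, dKO over WT, with 95% intervals from the edgeR fit, ordered by value. Agrn (red) is the member past the adjusted threshold, and 20 of the 27 estimates lie below 0; with library-total scaling, where the median of all genes is 1.21, all 27 lie above 0.

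Of the genes that act on this matrix, listed by pathway, 1 was called. Of all 8444 genes tested, 1.92% were called, and at that share lists of this size hold few calls or none. Agrin's receptor Lrp4 was at 13.97 ± 1.51 CPM in dKO and 12.9 ± 1.43 in WT (SD, n = 3 each; log2 fold change 0.083 ± 0.15, SE), Dag1 (dystroglycan) at 15.4 ± 0.272 and 17.2 ± 3.21 (-0.14 ± 0.14), and the kinase gene Musk had 1 count in dKO and 0 in WT. None of 21 tested receptors for collagen, laminin, agrin or fibronectin was called in either direction by edgeR, 11 of them with a positive and 10 with a negative value (median 0.030). The smallest p belonged to Sdc3, a syndecan of neurons (-0.52 ± 0.16, adjusted p = 0.0585), and Lrp1, an endocytic receptor (-0.29 ± 0.096, 0.116).

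None of 24 tested genes for collagen modification, folding and crosslinking was called, beside 1.92% of all genes tested. Of 37 listed, 36 were found by symbol, and Ctage5 was not. Mia3, which loads collagen into export vesicles (-0.29 ± 0.14, adjusted p = 0.374, edgeR), and Sec13, a coat protein of those vesicles (0.38 ± 0.20, 0.416), had the smallest p, and the median of the list was -0.041. Among matrix proteases and inhibitors none of 15 was called, the nearest being Adamts1 (0.18 ± 0.10, 0.485) and Cst3, cystatin C (0.15 ± 0.097, 0.573). Of 24 other matrix genes 1 rose, Spp1 (osteopontin), which macrophages also make: it was at 6.45 ± 0.110 CPM in dKO and 2.17 ± 0.531 in WT (SD, n = 3 each; 1.52 ± 0.28, adjusted p = 1.47e-04). The median of that list was -0.056, that of the proteases 0.080 and that of the TGF-β list that follows 0.041. None of 17 tested genes of TGF-β signalling and related transcription factors was called, with Tgfbr1 (-0.25 ± 0.11, 0.317) and Smad7 (0.54 ± 0.30, 0.460) nearest. Of the 24 listed there, 20 were found by symbol. Ctgf, Cyr61, Mkl1 and Mkl2 were not found and so not examined.

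Markers of cells known to make these chains were measured beside them. The share called was 1.92% of all genes tested. Of the 15 endothelial markers, 6 were tested and none was called, among them Kdr (-0.089 ± 0.097) and Flt1 (-0.11 ± 0.098), the most abundant, and Slco1c1 (-0.36 ± 0.22), with the smallest p. Cldn5 and Cdh5, which define endothelium, were too rare to test, with 19 and 5 counts in dKO and 25 and 14 in WT. Both lay lower in every dKO library than in any WT library, Cdh5 by a narrow margin. Cldn5 was at 0.192 to 1.04 CPM in dKO and 1.79 to 2.62 in WT. Cdh5 was at 0 to 0.485 in dKO and 0.510 to 1.90 in WT. Esam, tested and not called, went the other way, at 2.87 to 3.64 CPM in dKO and 2.40 to 2.81 in WT. Cldn5, Cdh5 and Esam were picked after values were seen. Among the other untested endothelial markers, some means were higher in dKO and some lower, with overlapping groups. Of the 6 tested, 2 had a positive and 4 a negative log2 fold change. Of all genes tested, 8.31% lay lower in every dKO library and 8.66% higher. Cldn5 and Cdh5 are not among those genes, and the share for genes as rare was not computed. The summed endothelial share was mostly that of Kdr, Flt1 and Slc2a1, with 3748, 1665 and 793 counts in dKO and 1882, 856 and 384 in WT. Of 13 mural markers, 10 were tested and none was called (Rgs5 0.085 ± 0.095, Pdgfrb -0.017 ± 0.12, Acta2 0.41 ± 0.16, Kcnj8 0.29 ± 0.25). None of 12 tested Müller glia markers was called; Kcnj10 (-0.39 ± 0.11, adjusted p = 0.0554) and Crym (0.19 ± 0.10, 0.457) came nearest, and Glul (0.054 ± 0.11) and Clu (0.18 ± 0.11) were the most abundant. Of 12 microglia and macrophage markers, which took 0.567% to 0.604% of the non-ribosomal counts in dKO and 0.527% to 0.573% in WT, Lyz2 rose (0.50 ± 0.097), while the abundant Csf1r (0.094 ± 0.095) did not pass. Of 11 rod markers, at 0.321% to 0.401% in dKO and 0.171% to 0.192% in WT, 8 rose, among them Prph2 (1.11 ± 0.12) and Gnat1 (0.96 ± 0.12). Among fibroblast markers Mgp (0.25 ± 0.15) and Pdgfra (-0.48 ± 0.28) did not pass, nor did Cryab (0.11 ± 0.18) of the lens list, and no pigment epithelium marker was tested. The part of these cells in the fall of Agrn was not tested.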

How the data were processed

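The deposited table holds counts per gene, whole numbers with no normalization, for 6 libraries. The submitters' processing notes name GRCm38, DESeq2 1.22.2 and STAR 2.7.0d. Neither the counting program nor its strand setting is stated in the sources used here. Per the labels' protocols, RNA was total RNA and the kit marks strand. Of the 63 members, 20 share exon bases with another annotated gene, which such counting may or may not separate. Each replicate is a pool of retinas, so the units compared are 3 pools per group. The edgeR p-values and SEs rest on a variance moderated across all genes, and not on each gene's own spread between pools alone. Fn1 and Col2a1, with an SD of 6.47 and 1.01 CPM in dKO, had SEs of 0.132 and 0.135. No batch is given in the labels.

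Here, edgeR 4.0.16 in R 4.3.3 was run on the counts as deposited: filterByExpr (minimum count 10, minimum total 15), TMM factors, the quasi-likelihood F test, two-sided, with group as the term, and Benjamini-Hochberg adjustment over all 8444 genes, called at 0.05. CPM use the TMM-scaled library size. Levels per length use the union of exons in the annotation given for GRCm38, with the longest transcript as an alternative. The model was tested on simulated data. Alternatives were other scalings and filters, DESeq2 1.42.0, limma-voom (limma 3.58.1), a thinned library, a replicate block and leaving out each library. The members and gene lists were chosen with earlier results of these data known. Members were given in full if called, among the 12 highest by CPM or the 8 smallest p. From the lists, up to 4 called genes or else the 2 with the smallest p were named, with the 2 most abundant markers for several cell types. Lrp4, Dag1, Musk, Cldn5, Cdh5, Esam, Slc2a1, Pou4f2, Slc17a6, Rbpms and Isl1 were added after values were seen. Values of 1 member and 2 marker genes are not reported here.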

Additional observations from a re-analysis of the deposited data

How the results depend on the processing

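Agrn had a negative log2 fold change under 15 of 16 alternatives and was called under 13, the exceptions being DESeq2, leaving out dKO replicate 3, and scaling to library totals. Sparc was positive under all 16, and called with limma-voom. Over all 27 members and the same alternatives, 373 of 431 values kept both sign and side of the threshold, and 55 changed sign. Of these, 20 did so under library totals, where the median of all genes moved to 1.21, and 35 elsewhere in 12 genes (smallest adjusted p = 0.776, edgeR or the alternative tool). The cause of these changes was not tested.

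Against 62 genes called higher and 100 lower in the table, library totals gave 3 genes higher and 0 lower, and 0 members lower; the members' median was 1.08, and these log2 fold changes turned positive: Agrn 0.55, Col4a6 0.61, Lama2 0.77, Col4a1 0.87, Hspg2 0.89, Lamc1 0.92, Col9a1 0.94, Lama1 0.95, Col5a1 1.02, Fn1 1.02, Lama5 1.04, Col18a1 1.05, Col4a2 1.05, Col2a1 1.08, Col9a2 1.11, Col3a1 1.12, Lamb2 1.16, Col23a1 1.16, Timp2 1.20 and Timp3 1.2217. Upper-quartile factors gave Lamb2 0.010 and Timp2 0.010. Without a filter on low counts the median over 59 members was -0.022, and sign changed for Col23a1 6.91e-04, Timp3 0.0014, Timp2 0.016 and Lamb2 0.021. DESeq2 called 26 genes higher and 26 lower, 0 members lower, with a median of -0.060 and Lamb2 0.013 and Col9a2 0.097. With limma-voom 1 member was called higher. Thinning dKO replicate 3 to the depth of the others gave Col6a3 -0.058, Timp3 1.61e-04, Lamb2 0.010 and Col9a2 0.13.

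Leaving out each library in turn, genes called higher ranged 29 to 71, genes called lower 61 to 115, members called lower 0 to 1 (0 without dKO replicate 3) and the members' median -0.14 to -0.0099. The fewest calls came without WT replicate 1. The log2 fold changes that changed sign ranged as follows: Timp3 -0.18 to 0.13, Timp2 -0.082 to 0.10, Col3a1 -0.19 to 0.080, Col6a3 -0.050 to 0.14, Col23a1 -0.066 to 0.038, Lamb2 -0.075 to 0.13, Col4a2 -0.27 to 0.092, Col9a2 -0.24 to 0.40, Lama1 -0.38 to 0.074, Col5a1 -0.33 to 0.075, Hspg2 -0.52 to 0.26 and Col1a2 -0.071 to 0.38.

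With the replicate number as a block, 58 genes were called higher and 100 lower, Agrn remained called, and the members' median was -0.085, with Lamb2 0.024 and Col9a2 0.058. Same-numbered libraries deviated together with correlations of 0.026, 0.013 and 0.029, each library correlating best with its own number, and all under 0.1, so the numbers were not taken as pairs.

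With the longest transcript in place of the union of exons, mean levels over libraries were 53.96 RPKM for collagen IV, 52.4 for FACIT collagens, 70.1 for fibrillar collagens, 55.3 for membrane collagens, 736 for Fn1 and Sparc, 26.4 for laminin α, 32.2 for laminin β, 21.6 for multiplexins, 3.11 for network collagens and 117 for Timp genes, so fibrillar collagens then exceeded collagen IV and the membrane collagens. The ratio of the members' summed share, dKO over WT, was 1.03, and 2.29 over library totals and 0.927 without the 3 members with the most counts. Depth limits the rare members: the 36 not tested had at most 68 counts over all libraries.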
